A study of Mus musculus with 12 samples.

Results

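Bone marrow-derived mast cells (BMMCs) given the antigen dinitrophenol-human serum albumin (DNP-HSA) alone were compared with blank BMMCs, the untreated cells of the same series. The comparison used 6 of the series' 12 RNA-seq libraries, 3 from the DNP-HSA group and 3 from the blank group, and covered every expressed gene, 12862 of the 28852 genes listed. Both groups were BMMCs of BALB/c mice grown in IL-3 and SCF, and the other 6 libraries came from cells given silica particles, either alone (SiO2) or with the antigen. DNP-HSA was the only treatment labelled for the DNP-HSA group, no treatment was labelled for the blank group, and neither the labels nor the study's methods give the dose, the time or the age of the donor mice for the sequenced cells. The study's methods do not say whether the sequenced cells had first been coated with anti-DNP IgE. BMMCs are a culture model made from marrow progenitors, and nothing states that the libraries of a group came from separate cultures or mice, so that a p-value refers to the spread among these libraries only, which may be technical.

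Mast cells carry IgE on the high-affinity receptor FcεRI. An antigen with many DNP groups cross-links anti-DNP IgE, the receptor chains are phosphorylated by LYN and SYK, and calcium entry, MAP kinases and NF-κB follow. The cells then release stored histamine and proteases, make prostaglandins and leukotrienes, and transcribe a first wave of immediate early genes, whose products are largely transcription factors and feedback inhibitors, followed by cytokine and chemokine genes.

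Each library is named by its title, which carries no number, 1 or 2, and values are given in that order. The estimated counts totalled 66678016 to 76718065 per library in the DNP-HSA group and 61103909 to 67839507 in the blank group. Counts summed per gene were expressed as counts per 1000000 (CPM) and scaled with the trimmed mean of M-values (TMM), which allows comparison of a gene between libraries but not between genes. FPKM, fragments per kilobase of isoform scaled to the library, was used for levels set between genes. Mast cell markers were present in all 6 libraries: *Kit* was at 878 to 1414 FPKM in the DNP-HSA group and 1419 to 1513 FPKM in the blank group, and *Fcer1a*, the IgE-binding chain of the receptor, at 2516 to 3071 FPKM with DNP-HSA and 2720 to 3253 FPKM in blank cells. Macrophage markers summed to 15.2 to 71.3 FPKM in the DNP-HSA group and 18.9 to 88.2 FPKM in the blank group. Lymphocyte markers summed to at most 1.41 FPKM and eosinophil markers to at most 4.87 FPKM in any library. Basophil markers summed to 1675 to 2976 FPKM in the DNP-HSA group and 1490 to 1619 FPKM in the blank group, mostly *Gzmb*. Erythroid and megakaryocyte markers summed to 586 to 817 FPKM with DNP-HSA and 705 to 948 FPKM in blank cells, mostly *Itga2b*. The basophil gene *Mcpt8* was at 20.7 and 22.7 FPKM in the unnumbered DNP-HSA and blank libraries, and 0.811 to 3.34 FPKM in numbered ones. The 10 neutrophil markers summed to 32.0 FPKM in DNP-HSA 2 and 31.4 FPKM in blank 1, with 7 of 10 at 1 FPKM or more in each, against 1.10 to 1.84 FPKM and 0 of 10 in the other 4 libraries. Their part in the results was not tested beyond leaving these libraries out. In such bulk samples, fewer cells of a type and less RNA per cell cannot be told apart. On the first principal component (37.9% of the variance of the 6 libraries) the unnumbered library of each group had a lower score than every numbered one.

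Compared with the blank group, 27 genes were higher and 1 gene was lower in the DNP-HSA group (edgeR quasi-likelihood F-test, Benjamini-Hochberg adjusted p under 0.05), which was 0.21% and 0.00777% of the genes tested. Of the 27 genes, 18 rose at least 8-fold and 9 rose less. Unless another fit is named, edgeR calls and adjusted p-values are those of this main fit, which held all 12 libraries. Before adjustment, 582 genes (4.52%) with a higher level and 367 (2.85%) with a lower one had a p under 0.05. The 3 DNP-HSA libraries lay entirely above the 3 blank libraries for 893 genes (6.94%) and entirely below them for 953 genes (7.41%), and all 27 raised genes were among the 893. Counts of list members without overlap are to be read beside these shares. At an adjusted p under 0.05 DESeq2 called 253 of the genes tested higher and 56 lower. With limma these were 44 and 2 with 1 added to the FPKM, and 57 and 1 with 0.1 added. Counts of list members called by DESeq2 or limma are to be read beside these totals. The 27 raised genes together took 2.5%, 2.56% and 3.33% of all counts in the DNP-HSA libraries, against 0.216%, 0.191% and 0.233% in the blank libraries. The median log2 change over all genes tested was 0.006.

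**Figure D1:**
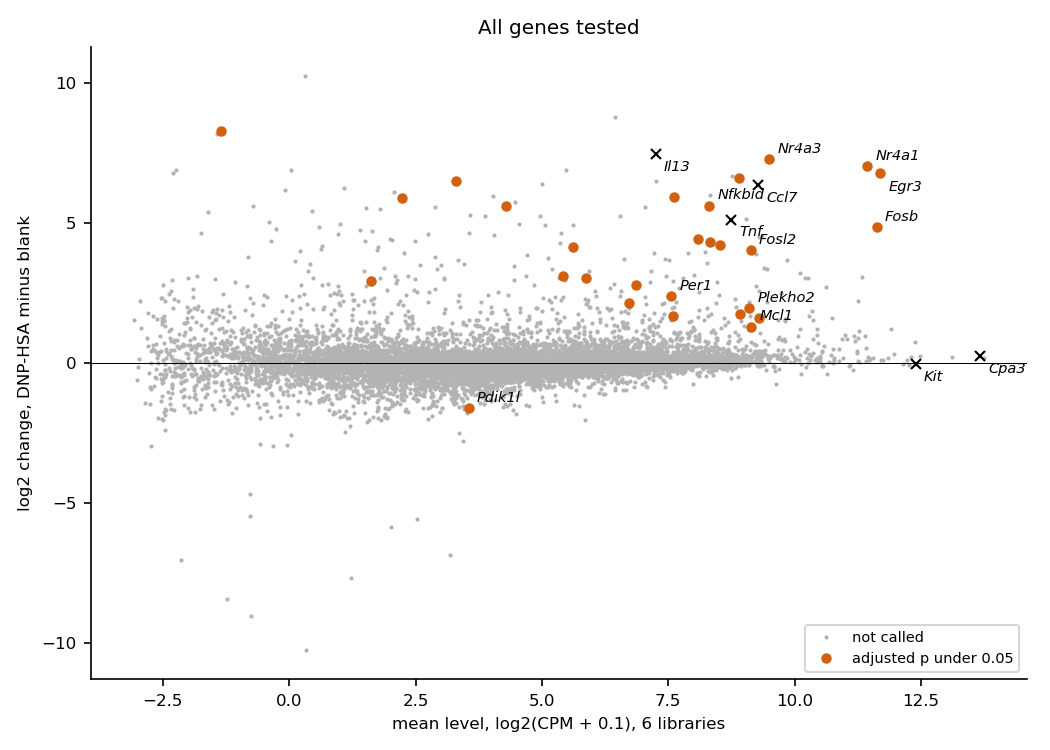
Log2 change of each of the 12862 genes tested (y axis, DNP-HSA minus blank) against its mean level over the 6 libraries (x axis, log2 of CPM plus 0.1). Filled orange points are the 28 genes past an adjusted p of 0.05, 27 above 0 and *Pdik1l* below, grey points the others, and crosses mark 5 named genes that did not pass. *Gm12167*, at 0 in every blank library, is drawn at its fitted value, which is not a bound.

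The calls rested on small groups and moved with single libraries. Without the unnumbered blank library only 2 genes, *Egr3* and *Nr4a2*, were called higher, against 6 without blank 1, 6 without blank 2, 10 without DNP-HSA 2, 14 without DNP-HSA 1 and 47 without the unnumbered DNP-HSA library. Leaving out DNP-HSA 2 and blank 1, the libraries of these 2 groups with neutrophil markers, left 2 libraries in each of them and 0 calls. That edgeR fit had 293 genes higher and 139 lower at an unadjusted p under 0.05, against 582 and 367 with all libraries. SiO2 1 and DNP-HSA plus SiO2 2, with the neutrophil gene *S100a9* at 10.8 and 11.3 FPKM, stayed in the fit. The changes of the 27 genes were then nearly as large for some, with *Egr3* at 6.34 (6.79 with all libraries), *Nr4a2* at 6.06 (6.60), *Plekho2* at 1.93 (1.95) and *Frmd4b* at 3.09 (3.09), while 7 moved by over 1.5-fold, *Sik1* to 3.83 (5.60). Without the 4 unnumbered libraries of the series 45 genes were higher (0.35%) and 9 lower (0.07%), and 18 of the 27 were among the 45. The difference on the scale of log2(CPM + 0.1) had a median over the 27 genes of 3.06 between the unnumbered libraries and 4.32 between the means of the numbered ones. Its direction there was fixed by the choice of the genes, whose groups do not overlap.

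The NR4A orphan nuclear receptors, transcription factors encoded by immediate early genes, showed the clearest change. All 3 of 3 rose, with a median log2 change of 7.03. *Nr4a1* (also known as Nur77; chromosome 15, 101254269 to 101274795) had 3970.3, 3739.9 and 8848 CPM in the DNP-HSA libraries, against 46.4, 20.3 and 60.1 CPM in the blank libraries. Log2 changes are given with their standard error (SE). That of *Nr4a1* was 7.03 ± 0.73 SE (adjusted p = 0.00385), and no library of one group reached the range of the other. *Nr4a3* (chromosome 4, 48045153 to 48086447) had 953, 1084 and 2277 CPM with DNP-HSA and 10.2, 9.84 and 7.67 CPM in blank cells, with a log2 change of 7.28 ± 0.75 SE (adjusted p = 0.00385). *Nr4a2* (chromosome 2, 57106830 to 57124003) was at 528, 878 and 1441 CPM with DNP-HSA and 7.4, 8.31 and 13.6 CPM in blank cells, with a log2 change of 6.60 ± 0.59 SE (adjusted p = 0.00167). DNP-HSA 2 was the highest library for each of the 3 genes. Ranked by FPKM within a library, *Nr4a1* stood at place 23, 40 and 12 in the DNP-HSA libraries and at place 3678, 6872 and 2229 in the blank libraries.

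The EGR family are zinc finger transcription factors that immediate early signals switch on, and the NAB proteins are their corepressors. Of 6 genes tested 2 rose in edgeR, while DESeq2 called 4 and limma 3, and the 6 had a median log2 change of 4.78. *Egr3* (chromosome 14, 70077203 to 70082614) had the smallest p of all genes: 5069, 6798 and 7843 CPM in the DNP-HSA libraries and 73.6, 31.5 and 73.4 CPM in the blank libraries, a 110.4-fold difference (adjusted p = 0.00167). It moved to place 29, 27 and 31 by FPKM in the DNP-HSA libraries, against place 3545, 6519 and 3446 in the blank libraries. *Egr4* (chromosome 6, 85511121 to 85513589) rose over a blank level near the detection limit, with 22, 11.1 and 25.1 CPM in DNP-HSA cells and 0, 0.211 and 0.441 CPM in blank cells (log2 change 6.49 ± 1.04 SE, adjusted p = 0.0375). Of the 6 genes 5 had libraries that did not overlap, the following pair among them without passing the test. *Egr2* had 916, 528 and 1142 CPM with DNP-HSA against 2.31, 4.32 and 18.6 CPM in blank cells (log2 change 6.68 ± 1.22 SE, adjusted p = 0.0647), and *Egr1* had 3996, 3159 and 6692 CPM with DNP-HSA against 161, 55.7 and 1429 CPM in blank cells (log2 change 3.07, adjusted p = 0.334). Without blank 2 *Egr1* passed, with a log2 change of 5.41 (adjusted p = 0.0414). Blank 2 stood out for *Egr1*, below every DNP-HSA library but 8.88 times the unnumbered blank library, and it was also the highest blank library for *Egr2*, *Fosb*, *Fos*, *Jun* and *Junb*.

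AP-1 is the dimer of FOS and JUN family proteins. Of its 9 genes tested 2 rose in edgeR, *Fosb* and *Fosl2*, while DESeq2 called 6 and limma 4. The libraries of 7 did not overlap, and the median log2 change was 3.67. *Fosl2* (chromosome 5, 32135801 to 32157842) was at 513, 939 and 1708 CPM with DNP-HSA and 48.5, 69.3 and 78.2 CPM in blank cells (log2 change 4.01 ± 0.48 SE, adjusted p = 0.0102). *Fosb* (chromosome 7, 19302696 to 19310051) had even levels with DNP-HSA, at 6377, 6046 and 5878 CPM, and uneven ones in the blank libraries, at 239, 50.8 and 346 CPM (log2 change 4.85 ± 0.71 SE, adjusted p = 0.0279). It did not pass without the 4 unnumbered libraries (adjusted p = 0.128). *Fos* itself had 1457, 228 and 1019.7 CPM with DNP-HSA against 96.7, 6.66 and 499 CPM in blank cells, and its libraries overlapped (adjusted p = 0.818). *Jun* (1542, 681 and 2909.8 CPM with DNP-HSA against 94.7, 48.8 and 259 CPM in blank cells) and *Maff*, a small MAF partner (22.4, 26.3 and 134 CPM with DNP-HSA against 0.605, 2.67 and 1.63 CPM in blank cells), did not overlap between groups and did not pass (adjusted p = 0.0962 and 0.0647), though *Maff* passed without the unnumbered DNP-HSA library (adjusted p = 0.0496).

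Among 17 tested genes of the KLF, MYC and other early transcription factors 1 rose in edgeR, *Csrnp1*, which encodes a nuclear DNA-binding protein. DESeq2 called 8 of the 17, and limma 3 with 1 added to the FPKM and 6 with 0.1 added. The median log2 change of the 17 was 2.51. *Csrnp1* had 312, 284 and 956 CPM with DNP-HSA against 20.6, 22.7 and 29.7 CPM in blank cells (log2 change 4.41, adjusted p = 0.037). The Krüppel-like factor genes *Klf6* and *Klf4* differed by 2.51 and 3.34 on the log2 scale (both adjusted p = 0.0647), *Klf2* by 3.34 (adjusted p = 0.073) and *Atf3*, a stress-induced repressor, by 6.50 (adjusted p = 0.14). None of these 4 overlapped between groups. On the other side of 0 was *Id3*, an inhibitor of DNA binding, with 0.948, 0.29 and 1.02 CPM with DNP-HSA against 0.666, 3.66 and 3.77 CPM in blank cells, overlapping and not passing (log2 change -1.84, adjusted p = 0.515). Outside these lists, *Mycn*, a MYC family gene, rose to 38.5, 69.1 and 169 CPM in the DNP-HSA libraries, against 5.59, 5.39 and 4.8 CPM in the blank libraries (log2 change 4.13 ± 0.68 SE, adjusted p = 0.0435). *Cited2*, a coregulator that binds the coactivators CBP and p300, rose to 758, 593 and 900.5 CPM, against 229, 210.2 and 233 CPM in blank cells, a 3.35-fold difference (adjusted p = 0.0294).

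**Figure D2:**
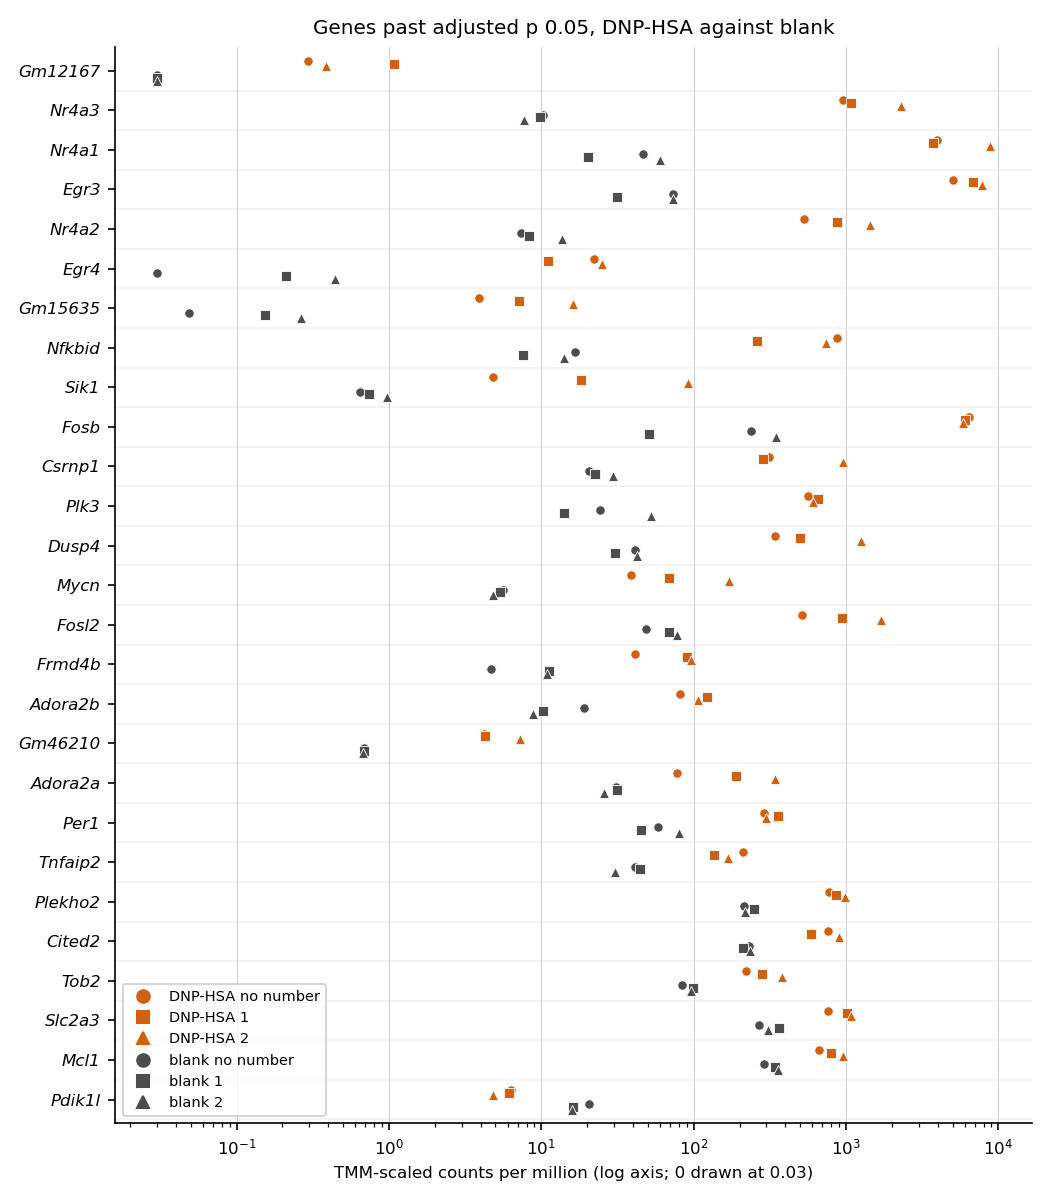
TMM-scaled CPM (x axis, log scale) of 27 of the 28 genes past an adjusted p of 0.05, 26 of them raised, 1 gene a row, ordered by fitted log2 change with *Pdik1l*, the gene that fell, at the bottom. In each row the 3 orange symbols are the DNP-HSA libraries and the 3 grey symbols below them the blank libraries. In every row the groups are apart, and in 19 of the 26 raised genes drawn DNP-HSA 2 (triangle) is the highest.

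Promoter sequences were examined for the called genes, all raised but *Pdik1l*. The RefSeq table (GRCm38.p6) held windows of 300 bases, 250 before a gene's start and 50 after it, for 21 of the 28 genes, 30 windows in all. Matches on both strands were counted for the cAMP response element (CRE, TGACGTCA), the AP-1 site (TGACTCA), the EGR site (GCGTGGGCG), the TATA box (TATAAA), the SRF site (CArG box) and the NF-κB consensus site. The NF-κB site was found in 5 of the 30 windows (16.7%), against 4.51% of the 32851 windows of the table. The CRE was in 1 window of 30 (1.79% of all windows), the AP-1 site in 2 (5.2%), the TATA box in 2 (13.6%), the CArG box in 1 (1.63%), that of *Pdik1l*, and the EGR site in 0 (0.612%). A CArG box can contain the TATA letters, and no other motif contains another. These are matches of letters, not measured binding. The windows of the table were not limited to expressed genes, some genes had several, and the shares were not tested. The 5 windows with an NF-κB site are shown on the gene's strand, with every match in capitals. That of *Nfkbid* also holds the CRE, 51 bases before the start, and the *Fosl2* window holds 2 matches that overlap by all but 1 base.
Nr4a1 (chr15:101266596-101266895, plus strand): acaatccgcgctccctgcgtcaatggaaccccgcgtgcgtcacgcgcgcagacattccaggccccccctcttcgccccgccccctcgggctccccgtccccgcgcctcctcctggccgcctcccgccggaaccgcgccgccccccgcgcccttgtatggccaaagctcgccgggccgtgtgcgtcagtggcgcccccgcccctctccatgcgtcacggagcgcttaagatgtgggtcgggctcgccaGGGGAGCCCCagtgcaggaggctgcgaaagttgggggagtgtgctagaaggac
Egr4 (chr6:85513540-85513839, minus strand): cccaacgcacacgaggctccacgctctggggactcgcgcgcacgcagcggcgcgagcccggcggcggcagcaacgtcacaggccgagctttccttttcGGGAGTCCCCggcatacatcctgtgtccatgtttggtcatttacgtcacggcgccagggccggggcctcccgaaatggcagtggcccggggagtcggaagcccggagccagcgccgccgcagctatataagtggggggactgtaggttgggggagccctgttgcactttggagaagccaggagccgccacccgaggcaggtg
Fosb (chr7:19309996-19310295, minus strand): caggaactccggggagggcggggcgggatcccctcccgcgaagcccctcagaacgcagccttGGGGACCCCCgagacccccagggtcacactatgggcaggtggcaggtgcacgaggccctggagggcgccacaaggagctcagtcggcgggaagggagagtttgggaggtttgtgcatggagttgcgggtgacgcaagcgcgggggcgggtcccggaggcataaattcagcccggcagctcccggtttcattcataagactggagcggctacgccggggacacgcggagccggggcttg
Fosl2 (chr5:32136222-32136521, plus strand): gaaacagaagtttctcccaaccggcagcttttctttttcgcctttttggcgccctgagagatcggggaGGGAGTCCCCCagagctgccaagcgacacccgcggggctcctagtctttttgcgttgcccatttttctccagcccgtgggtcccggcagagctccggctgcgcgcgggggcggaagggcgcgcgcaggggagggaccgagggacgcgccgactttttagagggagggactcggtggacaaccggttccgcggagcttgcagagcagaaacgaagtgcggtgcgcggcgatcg
Nfkbid (chr7:30422156-30422455, plus strand): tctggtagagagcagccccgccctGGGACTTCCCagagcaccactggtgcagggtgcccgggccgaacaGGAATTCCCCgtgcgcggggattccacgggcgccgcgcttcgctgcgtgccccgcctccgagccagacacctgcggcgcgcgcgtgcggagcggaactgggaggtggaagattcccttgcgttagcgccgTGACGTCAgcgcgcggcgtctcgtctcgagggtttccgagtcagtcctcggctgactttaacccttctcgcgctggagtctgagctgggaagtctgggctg

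Genes that respond to cAMP through CREB, the factor that binds the CRE, included 3 raised genes among 9 tested, namely *Fosl2* and the following pair. DESeq2 called 4 of the 9 and limma 2 or 3, by the value added to the FPKM. The median log2 change of the 9 was 2.17. *Per1*, a repressor of the circadian clock, had 289.9, 359 and 297 CPM in the DNP-HSA libraries, against 58.1, 45 and 79.7 CPM in the blank libraries (log2 change 2.37 ± 0.27 SE, adjusted p = 0.00646). *Sik1*, a kinase that restrains CREB coactivators, had 4.8, 18.2 and 91.1 CPM with DNP-HSA against 0.642, 0.744 and 0.971 CPM in blank cells, a wide spread with DNP-HSA 2 far above the others (log2 change 5.60 ± 0.93 SE, adjusted p = 0.0475). *Rgs2*, a regulator of G-protein signalling, did not pass at 1581, 1654 and 2762 CPM with DNP-HSA against 216, 114 and 314 CPM in blank cells (log2 change 3.22, adjusted p = 0.0647). *Per1* was the only one of 12 tested clock genes called in edgeR, and the 12 had a median log2 change of 0.03. Of the 12, 3 were higher at an unadjusted p under 0.05. Without overlap 2 lay above the blank libraries, as did 6.94% of all genes tested.

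Adenosine potentiates mast cell mediator release through its G-protein-coupled receptors, and 2 of the 6 adenosine genes tested rose, both receptors that raise cAMP. DESeq2 called 3 of the 6 and limma 2. *Adora2b* had 81.1, 123 and 107 CPM with DNP-HSA and 19.1, 10.3 and 8.86 CPM in blank cells (log2 change 3.02 ± 0.48 SE, adjusted p = 0.0375). *Adora2a* had 78, 191 and 340.3 CPM with DNP-HSA and 31, 31.6 and 25.6 CPM in blank cells (log2 change 2.79 ± 0.45 SE, adjusted p = 0.0375), and its difference was smaller between the unnumbered libraries (1.33) than between the numbered ones (3.16) on the log2(CPM + 0.1) scale. *Adora3*, the receptor best known in rodent mast cells, had 200.5, 321 and 567 CPM with DNP-HSA against 125, 152 and 111 CPM in blank cells and did not pass (adjusted p = 0.19). The libraries of the other 3 genes of the list, all of adenosine metabolism, overlapped between groups.

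Feedback on the MAP kinases was represented by the dual-specificity phosphatases, of which 1 of 9 rose in edgeR and the median log2 change was 3.04. DESeq2 called 6 of the 9 and limma 1 or 2, by the value added to the FPKM. *Dusp4*, a nuclear phosphatase of MAP kinases, had 343, 501 and 1244 CPM with DNP-HSA against 41.1, 30.5 and 42.6 CPM in blank cells (standard error of its log2 change 0.60, adjusted p = 0.0268). Libraries of 7 of the 9 genes did not overlap. *Dusp5* and *Dusp6*, which act on ERK, differed by 4.26 (adjusted p = 0.0647) and 3.66 (adjusted p = 0.138) on the log2 scale, and *Dusp1* by 3.04 (adjusted p = 0.451). Of 7 ERK feedback inhibitors 0 passed with the main edgeR fit or limma and DESeq2 called 3, the number higher at an unadjusted p under 0.05: the Sprouty genes *Spry1* (log2 change 5.73, adjusted p = 0.106) and *Spry2* (log2 change 2.96, adjusted p = 0.14), and *Errfi1*, an inhibitor of EGF receptors (log2 change 3.11, adjusted p = 0.26). With the 6 libraries alone edgeR called *Spry2* (adjusted p = 0.0367) and *Errfi1* (adjusted p = 0.0492). The 17 MAP kinase genes themselves, of which 0 passed, 4 were higher at an unadjusted p under 0.05 and DESeq2 called 1, had a median log2 change of 0.07. Of the 17, 3 did not overlap, all higher, where 6.94% of all genes tested lay above without overlap. *Map3k8*, encoding the kinase TPL2 upstream of ERK, was furthest from 0 with 24.5, 15.4 and 54.9 CPM with DNP-HSA against 1.57, 0.899 and 1.59 CPM in blank cells (log2 change 4.54, adjusted p = 0.20).

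In the NF-κB pathway the raised gene was an inhibitor. *Nfkbid*, an atypical nuclear IκB protein (chromosome 7, 30421732 to 30428746), had 867, 259.6 and 735 CPM with DNP-HSA against 16.6, 7.54 and 14 CPM in blank cells (log2 change 5.61 ± 0.83 SE, adjusted p = 0.0279), and its promoter window, printed with the others, holds 2 NF-κB matches. It was the only gene called in edgeR of the 12 in the IκB and A20 list, of which DESeq2 called 4 and limma 2. The list had a median log2 change of 0.46. Of that list 5 genes lay above the blank libraries without overlap, *Nfkbid* included, and 2 below, against 6.94% and 7.41% of all genes tested. *Nfkbiz* had 800.4, 291 and 591 CPM with DNP-HSA against 23.6, 33.7 and 51.1 CPM in blank cells (log2 change 3.96, adjusted p = 0.0943), *Tnfaip3*, encoding A20, 454, 264 and 312 CPM with DNP-HSA against 35.8, 44.4 and 55 CPM in blank cells (log2 change 2.93, adjusted p = 0.116), and *Nfkbia* had a log2 change of 1.99 (adjusted p = 0.172). The 2 below were *N4bp1*, a regulator of NF-κB signalling (36.8, 28.9 and 35.1 CPM with DNP-HSA against 55.3, 46.6 and 50.5 CPM in blank cells, log2 change -0.60, adjusted p = 0.635), and *Tnip1*, an A20-binding protein (log2 change -0.26, not passing). The 13 genes of the NF-κB subunits and the CBM complex had smaller differences, led by *Nfkb2* (log2 change 1.16, adjusted p = 0.0687, and 0.0438 without the unnumbered DNP-HSA library) and *Rel* (log2 change 1.51, adjusted p = 0.327, and 0.036 in an edgeR fit of the 6 libraries alone). In the main edgeR fit and in limma 0 passed, with 2 called by DESeq2 and 6 higher at an unadjusted p under 0.05. *Tnfaip2*, a gene first known as a target of TNF, rose to 209, 137 and 169 CPM in the DNP-HSA libraries, against 41.2, 44.2 and 30.6 CPM in the blank libraries (log2 change 2.15 ± 0.32 SE, adjusted p = 0.0279).

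The lists of BCL2 family, p53 target and glucose genes each held 1 gene raised in edgeR. DESeq2 called 1, 3 and 1 of them, and limma at most 1 in each list. *Mcl1*, the antiapoptotic BCL2 family member, had 665, 795 and 955 CPM with DNP-HSA against 291, 339.8 and 355 CPM in blank cells (log2 change 1.29 ± 0.21 SE, adjusted p = 0.0375), 1 of 13 family genes, whose median log2 change was -0.10. The proapoptotic BH3-only genes lay on both sides of 0: *Bcl2l11*, encoding BIM, had 189.7, 94.8 and 186 CPM with DNP-HSA against 52.1, 40.1 and 37.3 CPM in blank cells and *Bbc3*, encoding PUMA, 60.5, 64.1 and 82.1 CPM with DNP-HSA against 94.4, 157 and 150.0 CPM in blank cells, without overlap and without passing (adjusted p = 0.57 and 0.651). *Plk3*, a polo-like kinase of the stress response, rose to 564, 649.5 and 607 CPM in the DNP-HSA libraries, against 24.4, 14.1 and 52.7 CPM in the blank libraries (log2 change 4.32 ± 0.67 SE, adjusted p = 0.037). *Cdkn1a*, the p21 cell cycle inhibitor, had 1276, 499.7 and 1365 CPM with DNP-HSA against 247, 100.3 and 121 CPM in blank cells and did not pass (adjusted p = 0.263). *Slc2a3*, the glucose transporter GLUT3, was the only raised gene of 15 glucose and glycolysis genes, with 757, 1016 and 1085 CPM in DNP-HSA cells and 267, 361 and 306 CPM in blank cells (log2 change 1.61 ± 0.24 SE, adjusted p = 0.0279). The other 14 included *Hk2*, the inducible hexokinase, with a log2 change of 1.33 (adjusted p = 0.323).

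Further raised genes with a symbol were *Tob2*, *Plekho2* and *Frmd4b*. *Tob2*, an antiproliferative protein that recruits the deadenylase complex to mRNA, had 221, 280.1 and 382 CPM with DNP-HSA against 83.4, 98.3 and 95.4 CPM in blank cells (log2 change 1.67 ± 0.22 SE, adjusted p = 0.0165). *Plekho2*, a pleckstrin homology domain protein, had 768, 860.3 and 989 CPM with DNP-HSA against 213, 248 and 216 CPM in blank cells (log2 change 1.95 ± 0.25 SE, adjusted p = 0.0145). *Frmd4b*, a FERM domain scaffold protein, had 41.5, 90.4 and 95.4 CPM with DNP-HSA and 4.65, 11.2 and 10.9 CPM in blank cells (log2 change 3.09 ± 0.49 SE, adjusted p = 0.0375). The spread of these 3 within each group was small beside the difference. Another 3 raised genes had provisional symbols. *Gm46210*, a long intergenic RNA on chromosome 10, had 4.21, 4.28 and 7.26 CPM with DNP-HSA against 0.69, 0.688 and 0.677 CPM in blank cells (adjusted p = 0.0137). *Gm15635* lies antisense to *Slco2b1*, *Gm12167* also lies antisense to another gene, and since whether the authors counted by strand is not given, reads of these pairs cannot be told apart. *Gm15635* had 3.92, 7.18 and 16.2 CPM with DNP-HSA against 0.0484, 0.154 and 0.265 CPM in blank cells (adjusted p = 0.0145). *Gm12167* had 0.293, 1.08 and 0.384 CPM with DNP-HSA and 0 in each blank library, at least 14.4-fold higher over a floor of 3 counts per library (adjusted p = 0.0481). *Csrnp1* and *Slc2a3* overlap *Cx3cr1* and *Gm4482* on the same strand, and the neighbours averaged 1.99 and 2.50 FPKM with DNP-HSA and 5.92 and 6.27 FPKM in blank cells. *Slco2b1* was at 12.2 FPKM with DNP-HSA and 1.12 FPKM in blank cells without passing (adjusted p = 0.334).

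*Pdik1l*, which encodes a serine/threonine kinase, was lower with DNP-HSA. It had 6.34, 6.11 and 4.8 CPM in the DNP-HSA libraries and 20.4, 16.2 and 15.9 CPM in the blank libraries, a 3.04-fold difference, with a log2 change of -1.61 ± 0.27 SE (adjusted p = 0.0481). The groups did not overlap, but the call was lost on leaving out any 1 of the 6 libraries, with adjusted p between 0.0765 and 0.239.

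The 27 raised genes spanned a median of 12.6 kb, against 17 kb for all genes tested, and their most abundant isoform had a median of 4 exons, against 7, with up to 24 in *Frmd4b* and 23 in *Per1*. These differences were not tested. Which isoform carried the counts differed between groups for some of them, by the authors' isoform FPKM. For *Tnfaip2*, an isoform annotated as retaining an intron took 63.3, 72.4 and 57.4% of the gene's FPKM in the DNP-HSA libraries and 6.4, 2.57 and 6.71% in the blank libraries, where a protein-coding isoform led. The main protein-coding isoform of *Nr4a1* took 95.5, 97.3 and 95.9% with DNP-HSA and 69.2, 49.1 and 46.3% in blank cells. That of *Per1* took 92.2, 44.9 and 36.9% with DNP-HSA and 86.1, 85.5 and 82% in blank cells, so that DNP-HSA 1 and 2 lay below the blank range and the unnumbered DNP-HSA library above it. Such shares are estimates made by assembly from short reads, and they are least certain at low levels.

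Cytokine and chemokine genes had some of the largest differences of all, with wide spreads between DNP-HSA libraries and no call in edgeR. In a fit of the 6 libraries alone edgeR called *Il13*, *Csf1*, *Il6*, *Ccl3*, *Ccl4* and *Ccl7* of the genes described here (adjusted p from 0.0367 for *Ccl7* to 0.0438 for *Ccl4*). Of 6 tested type 2 and hematopoietic cytokine genes 0 passed in edgeR, 4 were higher at an unadjusted p under 0.05, DESeq2 called 4 and limma 2, and 4 did not overlap, and the median log2 change was 5.01 (5.01 also with *Il3*, at 0 in each blank library, set to its lower bound). *Il13*, a driver of mucus and airway hyperreactivity, had 148, 87.7 and 673 CPM in the DNP-HSA libraries, against 2.45, 0.927 and 1.87 CPM in the blank libraries (log2 change 7.44 ± 1.46 SE, adjusted p = 0.073). *Csf1*, the macrophage growth factor, had 1775, 868 and 1164 CPM with DNP-HSA against 200.2, 78 and 96.6 CPM in blank cells (log2 change 3.34, adjusted p = 0.14, and 0.036 without the 4 unnumbered libraries). *Lif*, of the IL-6 family, had 1673, 342 and 1596 CPM with DNP-HSA against 65.7, 33.3 and 62.5 CPM in blank cells (adjusted p = 0.204). *Il4* did not separate, at 11, 5.91 and 15.1 CPM with DNP-HSA and 7.7, 6.46 and 5.74 CPM in blank cells. *Il5* and *Il10* did not reach 1 FPKM in any of the 6 libraries and were not tested (at most 0.823 and 0.531 FPKM with DNP-HSA).

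Of 10 inflammatory cytokine genes 0 passed in edgeR, 6 were higher at an unadjusted p under 0.05, DESeq2 called 5 and limma 0, and 5 did not overlap, with a median log2 change of 1.95. *Tnf* had 901, 112 and 1494 CPM with DNP-HSA and 19.8, 21.2 and 32 CPM in blank cells (log2 change 5.10 ± 1.46 SE, adjusted p = 0.266). *Il6* had 429, 239.6 and 661 CPM with DNP-HSA and 34.1, 15.1 and 39.2 CPM in blank cells (log2 change 3.91 ± 1.10 SE, adjusted p = 0.25). DNP-HSA 1 was the lowest of the 3 antigen libraries for both, as for *Lif*, *Ccl3* and *Ccl4*. Among 9 chemokine genes 0 passed in edgeR, 4 were higher at an unadjusted p under 0.05, DESeq2 called 4 and limma 2. The libraries of 4 did not overlap, and all 4 are ligands that draw monocytes or T cells. *Ccl7* had 940.0, 691 and 2029 CPM with DNP-HSA against 28.3, 5.2 and 11.9 CPM in blank cells (log2 change 6.33, adjusted p = 0.0653), *Ccl4* 642, 209 and 1036 CPM with DNP-HSA against 18.2, 6.12 and 5.16 CPM in blank cells (64-fold, adjusted p = 0.14), *Ccl3* a log2 change of 5.13 (adjusted p = 0.20) and *Ccl2* one of 3.03 (adjusted p = 0.17). The other 5 overlapped between groups. *Hbegf*, an EGF receptor ligand, had 8.0, 23.8 and 232 CPM with DNP-HSA and 0.605, 1.15 and 0.50 CPM in blank cells (adjusted p = 0.118).

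**Figure D3:**
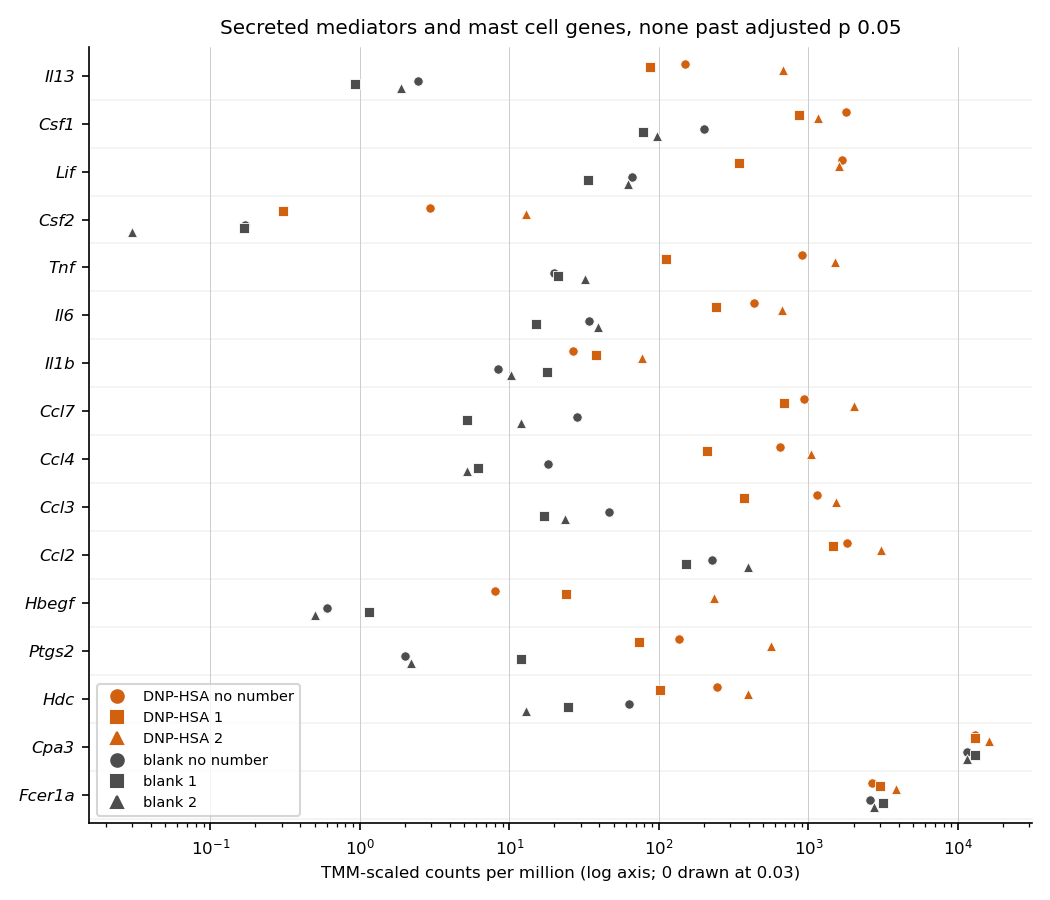
TMM-scaled CPM (x axis, log scale) of 14 genes of secreted mediators or the enzymes that make them, and of *Cpa3* and *Fcer1a* as mast cell genes, 1 gene a row. Orange symbols are the 3 DNP-HSA libraries and grey symbols the 3 blank libraries. The first 14 rows separate the groups without passing an adjusted p of 0.05, with *Tnf* from 112 to 1494 CPM among the DNP-HSA libraries, and the last 2 rows overlap. Members of the same lists that overlap, such as *Il4*, are not drawn, so the separation follows from the choice of rows. Of 9 chemokine genes tested 4 did not overlap, and these are the 4 drawn.

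For the mediators made by enzymes, *Ptgs2* and *Hdc* had the largest differences. Of 10 eicosanoid genes 0 passed in edgeR or limma and DESeq2 called 1, with 2 higher at an unadjusted p under 0.05. *Ptgs2*, the inducible cyclooxygenase, had 136, 74 and 564 CPM with DNP-HSA and 2.01, 12 and 2.19 CPM in blank cells (log2 change 5.57 ± 1.55 SE, adjusted p = 0.247). *Hdc*, which makes histamine, had 243, 102 and 395 CPM with DNP-HSA against 63, 24.8 and 12.8 CPM in blank cells and did not pass (log2 change 2.88, adjusted p = 0.47).

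Genes of the stored granules and of the receptor itself gave no calls, at levels that ranged widely. Of 10 granule protease genes 0 passed in edgeR, DESeq2 or limma, 1 was higher at an unadjusted p under 0.05, and the median log2 change was 0.28. The libraries of 2 did not overlap, both higher, where 6.94% of all genes tested lay above without overlap. *Cpa3*, the mast cell carboxypeptidase, was at 8380.4, 7754 and 8811 FPKM in the DNP-HSA libraries and 8654, 9198 and 7809.9 FPKM in the blank libraries. *Cma1*, the chymase, was at 3975, 7275 and 10723 FPKM with DNP-HSA and 4281, 11633 and 7549.7 FPKM in blank cells. *Ctsc*, which activates granule proteases, had 646, 328 and 445 CPM with DNP-HSA against 138, 192 and 119 CPM in blank cells without overlap (adjusted p = 0.609). *Gzmb*, encoding granzyme B, lay above the blank libraries as well, with 1519, 1363 and 2645 FPKM with DNP-HSA against 1224, 1233 and 1232 FPKM in blank cells (log2 change 0.87, adjusted p = 0.812). *Mcpt4*, a chymase of connective tissue mast cells, was low, at 10.9, 0.99 and 1.01 FPKM with DNP-HSA against 9.47, 0.53 and 0.73 FPKM in blank cells. The 3 FcεRI chain genes *Fcer1a*, *Ms4a2* and *Fcer1g* had log2 changes of 0.17, -0.13 and 0.33 and overlapped between groups. The 20 genes of proximal FcεRI signalling had a median log2 change of 0.06 and 0 calls in edgeR, DESeq2 or limma, 2 being higher at an unadjusted p under 0.05, with *Syk* at -0.17, and *Lcp2*, the adaptor SLP-76, was furthest from 0 among those that did not overlap (529, 576 and 691 CPM with DNP-HSA against 343, 349 and 345 CPM in blank cells, adjusted p = 0.39). Mast cell lineage genes (14 tested, median log2 change 0.02, *Kit* at -0.06), exocytosis genes (13, median -0.03), interferon response genes (11, median -0.03) and cell cycle genes (18, median 0.05) had 0 calls in edgeR, DESeq2 and limma, with 0, 1, 0 and 1 of them higher and 0 lower at an unadjusted p under 0.05.

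**Figure D4:**
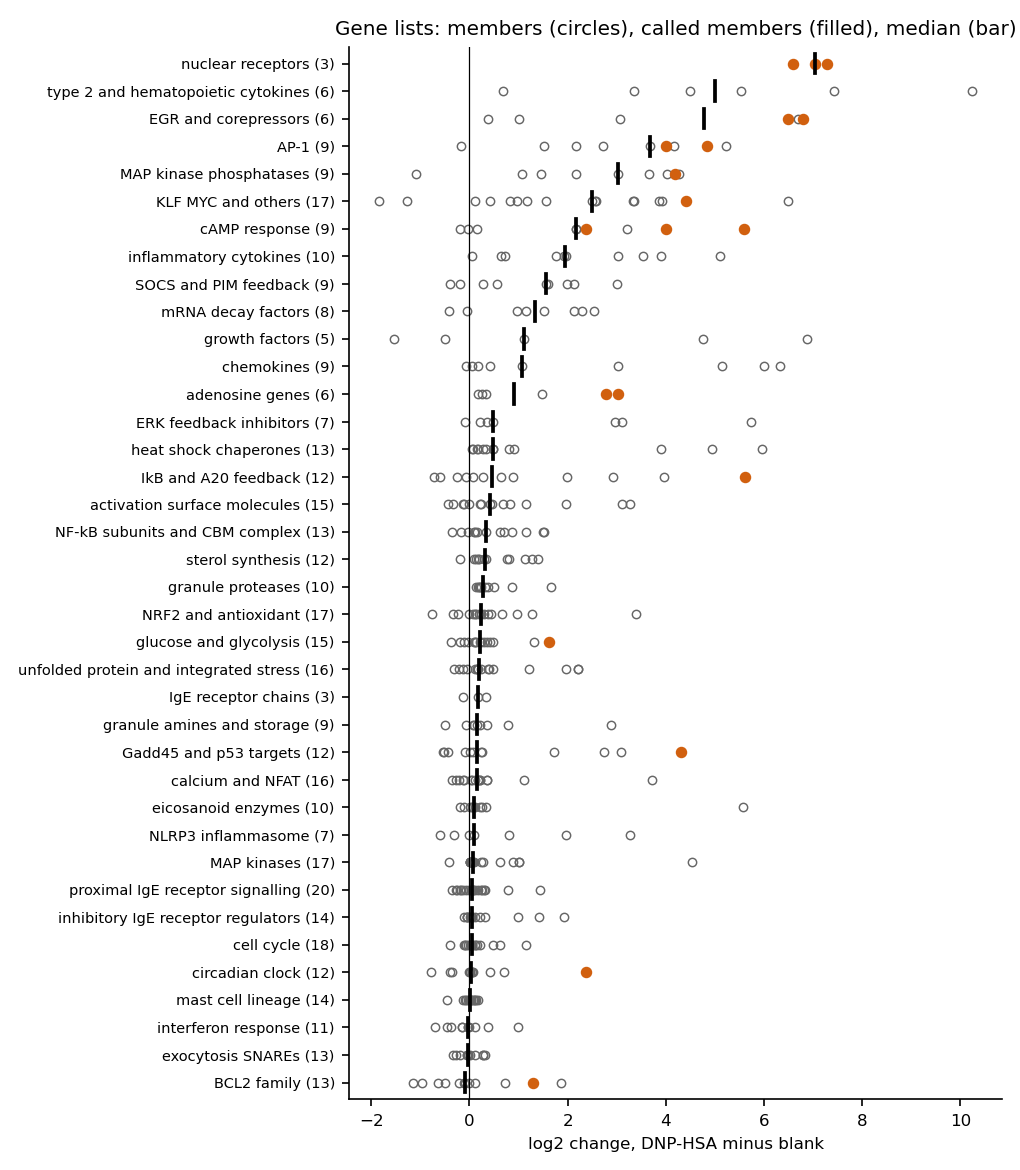
Log2 change (x axis, DNP-HSA minus blank) of every tested member of 38 gene lists, 1 list a row with its number of tested genes. Open circles did not pass an adjusted p of 0.05, filled orange circles did, and the black bar is the list's median. The NR4A genes lie at a median of 7.03 and the mast cell lineage genes at 0.02, against 0.006 for all genes tested.

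Stress-response genes gave differences without calls in the main edgeR fit. With the 6 libraries alone edgeR called *Dnajb1* (adjusted p = 0.0208), *Srxn1* (0.036), *Nlrp3* (0.036) and *Cd69* (0.0429) of the genes described here. Among 13 heat shock chaperone genes 6 did not overlap, 5 were higher at an unadjusted p under 0.05, and DESeq2 called 3 and limma 1. *Dnajb1*, an HSP40 cochaperone, had 1119, 726 and 1537 CPM with DNP-HSA against 65.3, 78.2 and 83.4 CPM in blank cells (log2 change 3.90, adjusted p = 0.0992, and 0.0314 without the 4 unnumbered libraries). *Hspa1a* and *Hspa1b*, near-identical copies whose reads may have been split between them, differed by 5.95 (adjusted p = 0.195) and 4.94 (adjusted p = 0.198) on the log2 scale, with DNP-HSA 2 far above the other libraries. *Srxn1*, an antioxidant gene, had 947, 751 and 1983 CPM with DNP-HSA against 97.9, 118 and 134 CPM in blank cells (adjusted p = 0.126), while the 17 NRF2 and antioxidant genes had a median log2 change of 0.23. *Nlrp3*, the inflammasome sensor, missed the threshold narrowly with 176, 209 and 386 CPM in the DNP-HSA libraries, against 16.8, 31.3 and 32.1 CPM in the blank libraries (log2 change 3.27 ± 0.56 SE, adjusted p = 0.0515, 0.0375 without the 4 unnumbered libraries and 0.0493 without the unnumbered DNP-HSA library alone). It belonged to a list of 7 tested inflammasome genes with a median log2 change of 0.09. *Cd69*, an early activation antigen of leukocytes, had 549, 421 and 419 CPM with DNP-HSA against 62.5, 23.3 and 74.6 CPM in blank cells (log2 change 3.11, adjusted p = 0.0647).

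The lists of feedback genes of cytokine signalling and of mRNA decay had medians above 0, with 0 calls in edgeR among 9 and 8 genes tested, 6 of each higher at an unadjusted p under 0.05, 6 and 4 called by DESeq2, 1 and 0 by limma, and medians of 1.55 and 1.34. In the first list 5 genes lay above the blank libraries without overlap (6.94% of all genes tested did) and 2 below (7.41% of all genes tested), *Stat5a* and *Stat5b*, which encode STAT5 (log2 change -0.40 and -0.20, neither passing). In the second 5 lay above and 0 below, and 2 of the 8 had a log2 change under 0. *Cish*, a SOCS family inhibitor of STAT5, had 517, 548 and 639.8 CPM with DNP-HSA and 78.2, 91.8 and 217 CPM in blank cells (log2 change 2.14, adjusted p = 0.0962). *Zfp36l1*, which binds AU-rich mRNAs for decay, had 904, 467 and 873 CPM with DNP-HSA and 129, 129.6 and 201 CPM in blank cells (log2 change 2.29, adjusted p = 0.14, and 0.0496 in an edgeR fit of the 6 libraries alone).

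Single members also stood apart in lists with a median near 0. *Rcan1*, an inhibitor of calcineurin and a target of NFAT, had 70.4, 94.6 and 796 CPM with DNP-HSA against 18.9, 32.6 and 21.7 CPM in blank cells (log2 change 3.71, adjusted p = 0.396), among 16 calcium and NFAT genes with a median log2 change of 0.15. *Gadd45b*, a stress sensor, had 45.6, 28.2 and 161 CPM with DNP-HSA against 7.48, 9.11 and 10.9 CPM in blank cells (log2 change 3.09, adjusted p = 0.138). In the unfolded protein and integrated stress list (16 genes, median 0.20), *Dnajb9*, a chaperone of the endoplasmic reticulum, had 146, 162 and 221 CPM with DNP-HSA against 28.3, 38.9 and 46.4 CPM in blank cells (log2 change 2.22, adjusted p = 0.133) and the transcription factor gene *Atf4* a log2 change of 1.21 (adjusted p = 0.14). The groups did not overlap for any of these genes, and none of these genes passed in the main edgeR fit. With the 6 libraries alone edgeR called *Dnajb9* (adjusted p = 0.0347).

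On the lower side, the 10 genes with the largest negative log2 changes among those not called, at an unadjusted p under 0.01 and with libraries that did not overlap, were of low level, at 1.25 to 11.1 CPM on average in the blank libraries. They were *mt-Tl2*, a mitochondrial tRNA gene, *Ppp1r3b*, a glycogen-targeting phosphatase subunit, *Med18*, a Mediator subunit, *Nuak2*, an AMPK-related kinase, and 6 zinc finger genes, *Zfp759*, *Zfp39*, *Zfp763*, *Zfp551*, *Zfp85* and *Zfp563*. *Ppp1r3b* had 3.01, 3.47 and 1.42 CPM with DNP-HSA and 9.47, 10.7 and 11.4 CPM in blank cells (log2 change -2.00, adjusted p = 0.14), and *Nuak2* 2.33, 3.5 and 2.97 CPM with DNP-HSA and 7.21, 11.5 and 14.5 CPM in blank cells (log2 change -1.91, adjusted p = 0.148, and 0.0426 without the 4 unnumbered libraries). *Zfp759* was at 1.58, 1.89 and 0.576 CPM in the DNP-HSA libraries and 5.8, 5.01 and 5.75 CPM in the blank libraries (adjusted p = 0.209).

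The same genes were set directly against cells given SiO2 particles alone, which share the blank libraries as controls, so that only the direct contrast was tested. In it 0 of 12862 genes were higher and 0 lower with edgeR (0.0% of those tested each way). DESeq2 called 1 higher, *Gm12279*, and 1 lower, *Zfp189*. At an unadjusted p under 0.05 edgeR had 73 genes higher and 85 lower, where DNP-HSA against blank had 582 and 367. With 3 libraries in each group, the 0 calls do not show that the 2 groups were alike. The log2 difference was above 0 for 23 of the 27 raised genes. These genes were chosen for high levels in the same DNP-HSA libraries, which favours differences above 0, so nothing is drawn from the count. *Fosb* had 6377, 6046 and 5878 CPM with DNP-HSA and 2618, 657 and 1928 CPM with SiO2 (log2 difference 1.81 ± 0.62 SE), and *Egr3* 5069, 6798 and 7843 CPM with DNP-HSA and 5699.6, 2509 and 1601 CPM with SiO2 (log2 difference 1.01 ± 0.46 SE). The NR4A genes differed by less than their errors allow to tell: 0.71 for *Nr4a1*, 0.38 for *Nr4a2* and -0.32 for *Nr4a3* (standard errors 0.57, 0.46 and 0.57). Among the called genes *Pdik1l* had the smallest p (0.00327 unadjusted), with 6.34, 6.11 and 4.8 CPM with DNP-HSA, 7.39, 13.2 and 13.9 CPM with SiO2 and 20.4, 16.2 and 15.9 CPM in blank cells. *Zfp189*, a zinc finger gene named with the next pair after their values were seen, had 2.08, 2.90 and 2.11 CPM with DNP-HSA, 4.89, 5.28 and 7.01 CPM with SiO2 and 7.44, 5.80 and 6.40 CPM in blank cells. *Dyrk3*, a dual-specificity kinase, had 217, 347 and 248 CPM with DNP-HSA, 80.5, 91.9 and 95.2 CPM with SiO2 and 74.5, 52.7 and 61.2 CPM in blank cells (log2 difference 1.60 ± 0.38 SE, unadjusted p = 0.00139, DNP-HSA against SiO2). *Dusp18*, a phosphatase, had 162, 164 and 118 CPM with DNP-HSA, 52.9, 56.6 and 45.1 CPM with SiO2 and 50.3, 46.5 and 28.2 CPM in blank cells (log2 difference 1.52 ± 0.34 SE, unadjusted p = 0.00106).

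**Figure D5:**
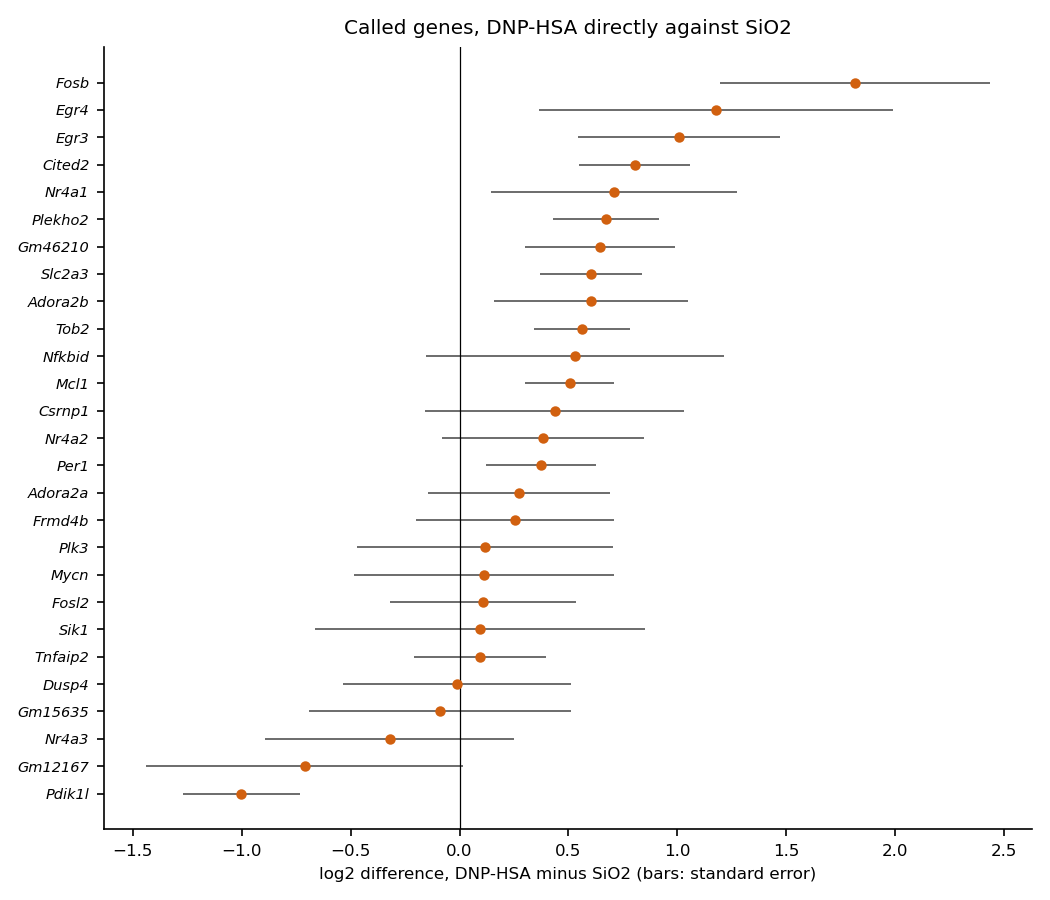
Log2 difference between the DNP-HSA and SiO2 groups (x axis, DNP-HSA minus SiO2) for 27 of the 28 genes called between DNP-HSA and blank, 1 gene a row. Points are estimates of the edgeR fit and bars their standard errors, with 22 of the 26 raised genes drawn to the right of 0, none past an adjusted p of 0.05, and *Pdik1l* at the bottom. The raised genes were chosen for high levels in the same DNP-HSA libraries, which favours points to the right.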

How the data were processed

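The series holds 12 poly(A) RNA-seq libraries in 4 groups of 3, and 6 were compared here. Per the submitters' processing notes the tools were StringTie 1.3.4d, HISAT2 2.0.4, cutadapt 1.9, edgeR and DESeq2, with no roles. The build was not given in the sources used here. Isoform coordinates equalled those of GENCODE M21 (GRCm38) for 84070 of 84846 isoforms. The authors deposited, for each isoform and library, an FPKM value and an estimated count that follows from the FPKM and isoform length and is rounded up to a whole number, so that it is an estimated count and not a raw one. All 24 value columns were matched to libraries.

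Isoforms were summed per gene identifier (28852 genes). The test, run on the 12862 genes that reached 1 FPKM in 3 or more of the 12 libraries, was that of edgeR 4.0.16 in R 4.3.3 (trimmed mean of M-values scaling, robust quasi-likelihood F-test, one model over all 12 libraries, no block), and p-values were adjusted over all 12862 genes by the Benjamini-Hochberg method. Standard errors were taken from the log2 change and the F statistic. Alternatives used limma 3.58.1 and DESeq2 1.42.0, other scalings and filters, the replicate number as a block, and leaving out libraries. The procedure was run on simulated data. The simulated libraries were independent and had the same spread for every gene, set below the common spread estimated here. The run therefore cannot show how the calls behave at the spread of these data. Genes were named by a rule: all called genes (1 of the 28 is not reported here), the largest uncalled changes at an unadjusted p under 0.01 without overlap, the members of each list with the smallest p or a known role, and the most abundant genes. The genes and lists were chosen with earlier results of these data known. Depth was at least 55737606 estimated counts per library.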

Additional observations from a re-analysis of the deposited data

How the results depend on the processing

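Against 27 genes higher and 1 lower, the calls were 61 higher and 5 lower with the replicate number as a block, 65 and 2 with the 6 libraries alone, 46 and 2 with scaling by library totals only, 253 and 56 with DESeq2, and 44 and 2 with limma on log2(FPKM + 1). With limma on log2(FPKM + 0.1) 57 were higher. Without the 4 unnumbered libraries 45 were higher and 9 lower. Without the 2 libraries with neutrophil markers among the 6 compared, an alternative chosen after seeing the data, the calls were 0 and 0. The lower call was lost without a filter (0) and with a filter at 5 FPKM (0). Leaving out each library in turn gave 2 to 47 genes higher and 0 to 2 lower. Between DNP-HSA and SiO2, DESeq2 called 1 gene higher and 1 lower against 0 and 0. RLE and upper-quartile scaling, a fit that was not robust and counts divided by 4 gave 25 to 29 higher and 1 lower. With counts divided by 4 *Gm12167* (adjusted p = 0.125) and *Sik1* (0.0513) no longer passed, so depth bears on these calls. Of the 27 genes, 27 were called by DESeq2, 22 by limma on log2(FPKM + 1), 25 under the block and 19 with the 6 libraries alone. The fit of the 6 libraries alone also called 22 named genes that had not passed, *Map3k8* and *Nlrp3* among them. Under the 20 alternatives the sign changed at least once for 215 of the 442 tested members of the lists, so that small differences have no firm direction, but for 0 of the 125 members with a log2 change of at least 1 in either direction and 0 of the 28 called genes. Of the 107 genes followed singly, from which 10 genes near 0 were dropped after most were seen to change sign, 4 changed sign, all uncalled: *Fcer1a* was at -0.10 with library totals only and with both forms of limma, *Kit* and *Syk* at 0.045 and 0.074 without the 2 libraries with neutrophil markers, and with each library left out *Kit* ran from -0.21 to 0.061 and *Ms4a2* from -0.28 to 0.029. The cause of these shifts was not tested. Scaling by library totals moved the median log2 change of all genes to -0.25, and TPM to -0.25.

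Equal numbers went with shared deviations for the unnumbered libraries only, and the labels name no shared culture or day. The correlation of deviations between the DNP-HSA and blank libraries was 0.68 for the unnumbered ones, -0.11 for number 1 and -0.10 for number 2. Across numbers it was 0.54 for DNP-HSA 1 with blank 2 and 0.54 for DNP-HSA 2 with blank 1, so that these libraries deviated with the other number and not with their own. The labels do not pair them so, no crossed block was fitted, the main fit has no block, and the block above joins equal numbers.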

Other observations

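Genes with a symbol of Zfp and a number, zinc finger genes, were set apart after their values were seen. Of 277 tested, 97 (35.0%) had all DNP-HSA libraries below all blank libraries and 8 (2.89%) all above, against 7.41% and 6.94% of all genes tested. Their median log2 change was -0.45, and 0 were called in edgeR in either direction.

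Rod photoreceptor genes were measured in some libraries. *Gnat1*, rod transducin, was at 0, 0.021 and 0 FPKM with DNP-HSA, against 0, 3.64 and 2.33 FPKM in blank cells. It was above 1.6 FPKM in every numbered library of the 2 groups given SiO2 and at 0 in the unnumbered ones. Without the 4 unnumbered libraries, *Gnat1* and *Prph2*, a rod disc membrane gene, were among the 9 genes called lower.

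The neutrophil genes *S100a8* and *S100a9* showed another pattern over the series. *S100a9* was at 12.2 FPKM in DNP-HSA 2, 9.80 FPKM in blank 1, 10.8 FPKM in SiO2 1 and 11.3 FPKM in DNP-HSA plus SiO2 2, and at 0 in the other 8 libraries.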
